A study of Homo sapiens with 6 samples.

Results

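Cytosine-to-uracil (C-to-U) conversions that recurred in HEK293T cells treated with editing buffer alone were examined. A site was defined as a genomic position and strand, and a site was taken when both buffer-only libraries listed it and none of the other 4 libraries did. This rule selected 2285 of 635496 distinct sites, or 0.36%. HEK293T is a human embryonic kidney cell line, which the labels give as HEK293XT, and the edit tables hold no expression values against which that identity could be checked. Cells were fixed with methanol on slides and kept overnight in RNA editing buffer at 37 °C. In RBFOX2-INSCRIBE (2 libraries), a rabbit antibody against the splicing regulator RBFOX2 recruited Apo1-Nb, a bacterially made fusion of rat APOBEC1 to a nanobody that binds rabbit IgG. The enzyme-only control (2 libraries) received Apo1-Nb without that antibody, and the buffer-only control (2 libraries) received neither. The methods describe PacBio full-length libraries for RBFOX2-INSCRIBE and the enzyme-only control, and the labels give the same kit for the buffer-only libraries. For each isoform and position the deposited value is the edit fraction, the share of reads with the conversion. Read numbers were not given, so the depth behind each fraction is unknown.

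APOBEC1 is a cytidine deaminase that turns C into U in RNA, and it prefers cytosines that follow an adenine or a uracil. Human cells also make deaminases of the same APOBEC family, several of which act on single-stranded DNA. A buffer-only library received no added deaminase. For its short-read data, the study describes buffer-only conversions as errors of reverse transcription or PCR, or damage to RNA. It subtracted buffer-only edit clusters there. For its long-read isoforms the study took the enzyme-only control as the background.

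The 4 sites with the highest fraction among those reading GCGG around the edited C are shown first, because this was the 4-base context furthest above its share of exonic cytosines. The 25 bases are the hg38 reference of the edited strand, 5′ to 3′, with GCGG in capitals and the edited C as its second letter. The BBS7 window is chr4:121855478-121855502 (minus strand, exon 6 of 19, coding). The PLD6 window is chr17:17206175-17206199 (minus strand, exon 1 of 2, coding). The CNN2 window is chr19:1038950-1038974 (minus strand, opposite to the 3′ UTR of exon 7, where another gene has an annotated exon on the edited strand). The FBXO28 window is chr1:224114122-224114146 (plus strand, exon 1 of 5, coding).
BBS7: caatggaaatgGCGGtaatcaggat
PLD6: ctgcggtccagGCGGcggcggccgc
CNN2: tgcagtacttgGCGGggcatgtggc
FBXO28: cccccaagatgGCGGcagcggcgga

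The 4 sites of highest fraction in JUN, a single-exon gene in which G preceded 12 of 14 sites, are given next with only the edited C in capitals. All 4 windows lie on the minus strand of chromosome 1, at chr1:58782713-58782737 and chr1:58782585-58782609 in the coding sequence and at chr1:58783621-58783645 and chr1:58783420-58783444 in the 5′ UTR.
JUN coding site A: gagggcttcgtgCgcgccctggccg
JUN coding site B: cggcagcggcggCttcagcgccagc
JUN 5′ UTR site A: gcttctccacggCggtaaagaccag
JUN 5′ UTR site B: gcagggtccgcaCtgatccgctccg

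Of the 12 sites with the highest edit fraction, 4 are shown last, picked for the runs of U or C beside the edited C. They are SF3A2 (chr19:2236816-2236840, plus strand, 5′ UTR), DSC3 (chr18:30992165-30992189, minus strand, 3′ UTR), NFATC2IP (chr16:28965698-28965722, minus strand, opposite to its 3′ UTR) and CRIPT (chr2:46627445-46627469, plus strand, 3′ UTR).
SF3A2: cggaagtgctttCtttgcccgccgt
DSC3: ccccccccccccCcttttttttttg
NFATC2IP: tttcaattttttCccctttaaatct
CRIPT: ttttttttttttCcccaaagacaga

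The base before the edited C was the clearest shared property of the recurrent buffer-only sites, and the rule had not used it. Guanine preceded 1166 of the 2285 sites, or 51.0% (95% exact binomial interval 49.0% to 53.1%, counting error only). Cytosine preceded 20.5%, uracil 17.1% and adenine 11.3%. Among the 1128936 cytosines in the exons of the same isoforms, guanine preceded 24.3%, cytosine 25.9%, uracil 26.5% and adenine 23.3%. The buffer-only sites had a higher share of G and a lower share of every other base before the C than these cytosines.

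The sites recurrent in RBFOX2-INSCRIBE and absent from the other groups, 26439 or 4.16% of all sites, had nearly the opposite order. Adenine preceded 51.7% of them, uracil 36.9%, guanine 8.25% and cytosine 3.13%. The enzyme-only recurrent sites, 4760 or 0.749% of all, lay between, with adenine before 39.7% and guanine before 21.8%. Adenine or uracil together preceded 28.4% of the buffer-only sites, against 88.6% and 69.9% of the RBFOX2-INSCRIBE and enzyme-only recurrent sites. The sets were chosen by which libraries listed a site, so these shares are descriptions without a test. By leaving out sites listed with Apo1-Nb the rule can itself remove A- and U-preceded sites. Over all 7335 sites that both buffer-only libraries listed, whatever the others listed, guanine preceded 46.0%.

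Beyond the preceding base, the buffer-only sites differed from exonic cytosines within 2 bases of the edited C. A guanine followed the C at 16.2% of sites and at 9.46% of exonic cytosines, and at 6.31% of RBFOX2-INSCRIBE recurrent sites. At the position 2 bases after the C, guanine stood at 32.5% of sites and 26.8% of exonic cytosines. Uracil stood 2 bases before the C at 33.2% of sites and 28.5% of exonic cytosines, and cytosine at 15.01% and 22.03%. From 3 to 5 bases away on either side, no base share differed from that of the exonic cytosines by more than 3.31 percentage points.

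**Figure D1:**
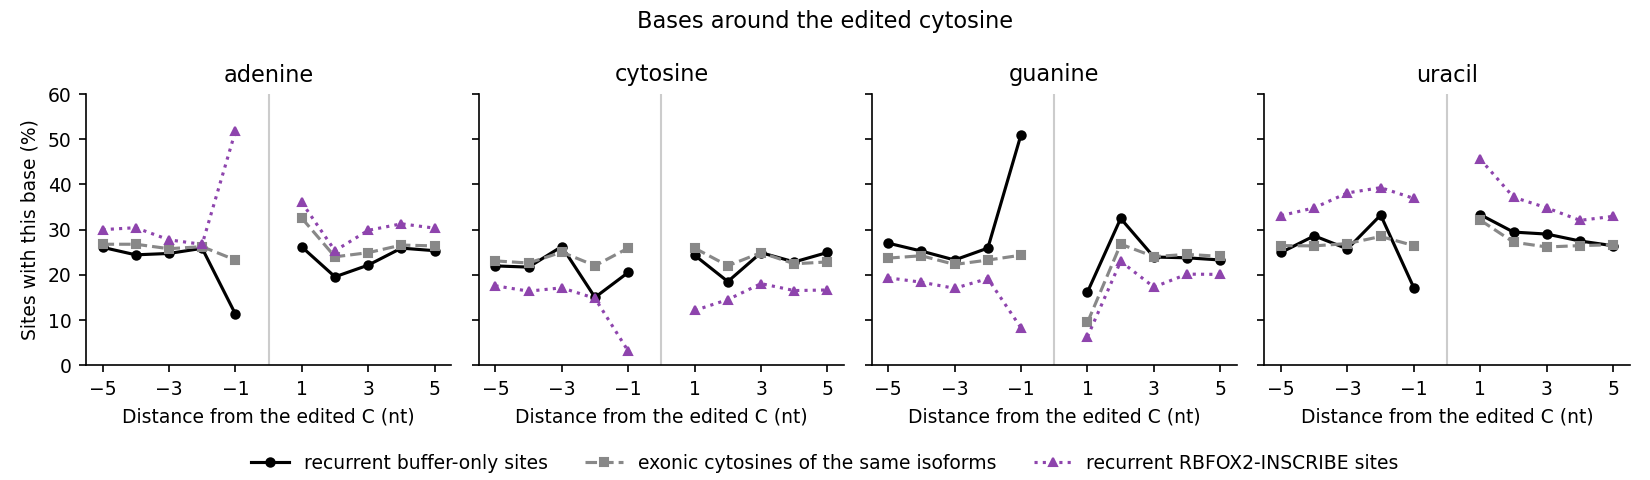
Percentage of sites with each base at 1 to 5 nt before (negative) and after the edited C, for the 2285 recurrent buffer-only sites, the exonic cytosines of the same isoforms and the 26439 recurrent RBFOX2-INSCRIBE sites. Guanine directly before the C reached 51.0% at the buffer-only sites, where adenine reached 51.7% at the RBFOX2-INSCRIBE sites.

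Read as triplets with the edited C in the middle, GCG was found at 212 sites, or 9.28%, against 2.74% of exonic cytosines, a ratio of 3.38. The longer GCGG of the windows in BBS7, PLD6, CNN2 and FBXO28 was found at 109 sites, or 4.77% against 1.07%, a ratio of 4.48. The other G-preceded triplets were more numerous and less above their exonic share, with GCC at 328 sites (ratio 2.13), GCA at 314 (ratio 1.87) and GCU at 312 (ratio 1.82). Among sites in 1 buffer-only library GCG made up 5.29% and GCGG 2.32%, also above their exonic shares. Among RBFOX2-INSCRIBE recurrent sites GCG made up 1.02%.

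Preceding guanine was frequent in every part of the transcript. On the strand of the isoform it preceded 55.3% of coding sites, 44.6% of 3′ UTR sites and 62.9% of 5′ UTR sites. The exonic cytosines of those regions had guanine before them in 26.4%, 20.97% and 38.3% of cases. The order of the regions was the same in both, and each buffer-only share was above its exonic share.

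Whether buffer-only libraries in general had this base composition was asked of sites listed in exactly 1 of the 6 libraries. The rule selected none of these sites, but those of a buffer-only library are likewise absent from the libraries with Apo1-Nb. As above, this absence can itself remove A- and U-preceded sites. Adenine or uracil preceded 38.3% and 38.7% of the 1-library sites in the buffer-only libraries. The corresponding values were 67.7% and 69.4% with RBFOX2-INSCRIBE and 55.0% and 62.8% with the enzyme alone. The groups did not overlap. The buffer-only mean was 38.5% ± 0.304 (SD, n = 2) and the mean with Apo1-Nb 63.7% ± 6.45 (SD, n = 4), a difference of -25.2 percentage points with an exact two-sided permutation p of 0.133 (0.133 after Benjamini-Hochberg adjustment over 5 outcomes). With 2 libraries against 4 this is the smallest p the test can give, so no outcome could pass 0.05. The methods describe replicates as separate slides or wells of one cell line, and the study calls the replicates of its edit clusters technical. The spread between these libraries may therefore be technical. Because the groups did not overlap, the p-value reflects the order of the libraries and not this spread. The SD with Apo1-Nb spans both RBFOX2-INSCRIBE and enzyme-only libraries.

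For the other outcomes of those 1-library sites the groups did not overlap either, each with the same exact permutation p of 0.133. A guanine followed the edited C at 12.8% ± 0.248 (SD, n = 2) of buffer-only sites and 9.68% ± 1.46 (SD, n = 4) of sites with Apo1-Nb. Sites in a 3′ UTR made up 41.3% ± 0.430 and 50.8% ± 5.06. The median edit fraction was 0.855% ± 0.0103 and 0.993% ± 0.106. Guanine before the C, a measure chosen after its values were seen, was 36.8% and 36.9% in the buffer-only libraries, 19.96% and 18.98% with RBFOX2-INSCRIBE and 27.5% and 22.96% with the enzyme alone.

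In absolute numbers, sites preceded by G or C varied less between libraries than sites preceded by A or U. With the recurrent buffer-only sites left out, 27991 and 27270 sites had guanine before the C in the buffer-only libraries, 37244 and 36558 with RBFOX2-INSCRIBE and 22908 and 33313 with the enzyme alone. The highest was 1.63 times the lowest. Sites with adenine before the C numbered 14800 and 14932, 82174 and 85959, and 29451 and 59543 in the same order, and the highest was 5.81 times the lowest. The corresponding ratio was 1.60 for cytosine and 4.01 for uracil. The number of reads per library was not given, and its part in these numbers was not tested.

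**Figure D2:**
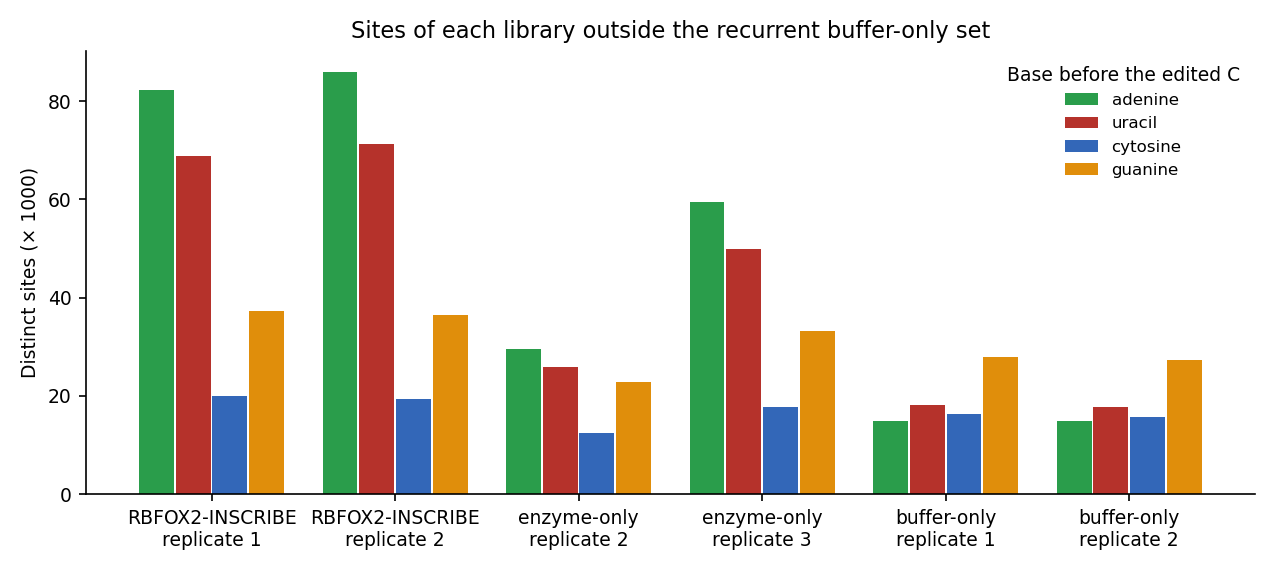
Number of distinct sites (in units of 1000) in each of the 6 libraries by the base before the edited C, without the 2285 recurrent buffer-only sites. Guanine is the most frequent base in both buffer-only libraries, and adenine in all 4 libraries with Apo1-Nb.

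Edit fractions of the recurrent buffer-only sites were low. The median was 0.279% in replicate 1 and 0.272% in replicate 2, with ranges of 0.0107% to 100% and 0.01001% to 100%. At least 1% was reached in both libraries by 291 sites, 2% by 105 sites and 10% by 9 sites. Across sites the fractions of the libraries had a Spearman rho of 0.918 (n = 2285), 1983 sites lay within 2-fold, and 23 lay over 10-fold apart. Sites of one isoform share its read depth, so this correlation is a description of the tables.

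Most of these fractions could not be told from the smallest value listed nearby. Of the sites with another listed site of the same isoform within 500 nt, 72.6% in replicate 1 and 73.7% in replicate 2 lay within 1.1 times the lowest fraction there. For sites in 1 buffer-only library in the same isoforms the shares were 71.9% and 73.5%. For the recurrent RBFOX2-INSCRIBE sites they were 48.2% and 51.0%. The recurrent sites and the 1-library sites of the buffer-only control were alike in this measure. The RBFOX2-INSCRIBE libraries listed more sites (208163 and 213167, against 79409 and 77937), so the lowest value there was taken over more neighbors, and the shares cannot be compared between the groups.

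At the edge of the rule, sites in both buffer-only libraries and exactly 1 other library numbered 1960, and their median fractions were 0.157% and 0.150%. Those in 2 others (1712 sites) had medians of 0.113% and 0.111%, and those in 3 others (1378 sites) 0.0733% and 0.0763%. For sites listed in 1 buffer-only library alone the medians were 0.847% in replicate 1 and 0.862% in replicate 2. Read numbers were not given, and the part of read depth in this order was not tested. Guanine before the C fell from 51.0% in none through 47.3% in 1 and 45.4% in 2 to 36.6% in 3. No site (0) was listed in all 4 libraries with Apo1-Nb, whether or not a buffer-only library listed it. The methods state that edits present in every replicate and sample were removed as likely SNPs, but not whether the buffer-only libraries entered that step. The absence did not depend on a buffer-only listing, and the 1378 sites of both buffer-only libraries and 3 others were present. Neither the counts here nor the site numbers of each library include a site listed in all 4 libraries with Apo1-Nb. The same holds for the 7335 sites of both buffer-only libraries.

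**Figure D3:**
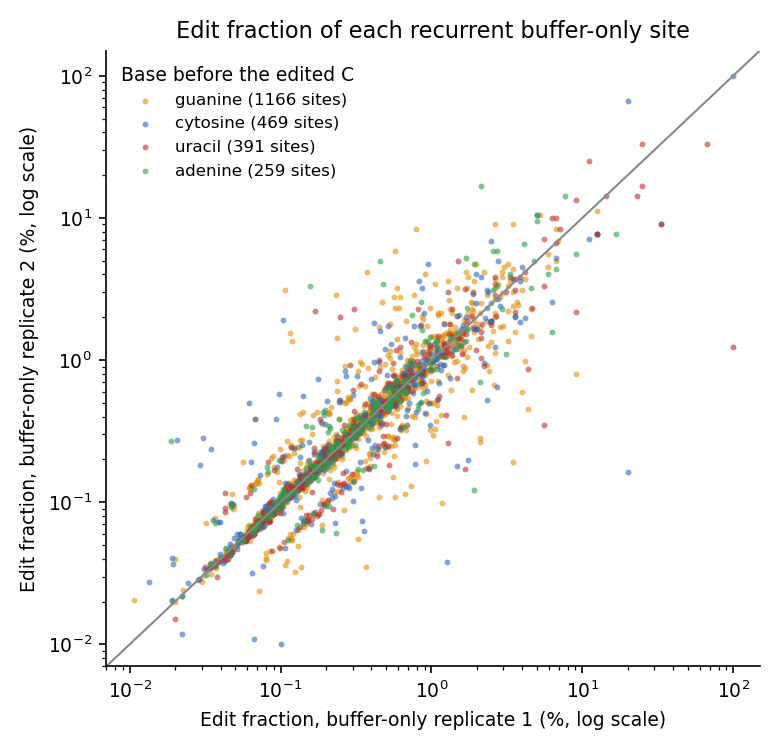
Edit fraction of each of the 2285 recurrent buffer-only sites in buffer-only replicate 1 and replicate 2 (percent, log axes), colored by the base before the edited C. The line marks equal values. Most sites lie near the line below 1%, and the few sites over 10% are mostly preceded by uracil or cytosine.

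The sites named next had the highest mean fraction over both libraries, which is the value they were chosen by. Read numbers were not given, so each of these fractions, 100% included, may rest on only a few reads. In NR2C2AP, which encodes a protein that binds the nuclear receptor NR2C2, the site at position 19202325 of chromosome 19 was 100% in both libraries, within the gene and outside the annotated exons of its isoform. In SF3A2, a subunit of the U2 small nuclear ribonucleoprotein, the first-exon site was 66.7% in replicate 1 and 33.3% in replicate 2. In RPS19, a protein of the small ribosomal subunit, a 3′ UTR site was 25% and 16.7%. In GUCY1A2, a soluble guanylate cyclase subunit, a 3′ UTR site was 23.1% and 14.3%. The NFATC2IP site, opposite to a gene for a protein that binds the transcription factor NFATC2, was 25% and 33.3%. In CCDC18, a coiled-coil protein, a 5′ UTR site was 14.3% in both libraries. The values of each of these sites lay within 2-fold of each other.

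Values further apart were found at other high sites. The TMED5 site in its 5′ UTR was 100% in 1 isoform in replicate 1 and 1.23% in another isoform in replicate 2. TMED5 encodes a protein of the early secretory pathway. The DSC3 site, in a desmosomal cadherin gene, was 20% and 66.7%, again in different isoforms. It lay in a run of C followed by a run of U, and U-rich or C-rich runs stood beside the NFATC2IP site and the CRIPT site (11.1% and 25%) as well.

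A run of 4 U directly before or after the edited C was present at 103 of the 2285 sites, or 4.51%. It was present at 2.30% of exonic cytosines and at 2.09% of the 1-library buffer-only sites in the same isoforms, but also at 6.11% of the RBFOX2-INSCRIBE and 4.96% of the enzyme-only recurrent sites. With the sites ordered by mean fraction and divided into 4 equal parts, the share rose from 1.57% in the lowest through 2.80% and 4.38% to 9.28% in the highest. It also rose with the number of further libraries that listed a site, to 6.38% with 1, 8.64% with 2 and 12.8% with 3. Runs of one base are prone to miscounting in sequencing and alignment, and the part of such errors here was not tested. Guanine before the C showed no such order over these parts (47.0%, 52.4%, 56.7% and 48.0%).

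Near-identical genomic copies were examined by counting exact matches of each 25-base window in hg38, on both strands of the chromosomes 1 to 22, X and Y. The reference window occurred more than once for 375 sites, or 16.4%, against 13.5% of 1-library buffer-only sites in the same isoforms, 11.6% of the RBFOX2-INSCRIBE and 15.6% of the enzyme-only recurrent sites. With the edited C read as T, the window occurred in the genome for 102 sites, or 4.46%, against 3.02%, 1.28% and 2.33%. These 102 sites had a median mean fraction of 0.618%, compared with 0.281% for the other 2183. Among the 2183, guanine preceded 51.5%. Of the windows shown above, the edited ones of CNN2 and CRIPT occurred 1 time each, and the reference window of DSC3 occurred 4 times.

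NBPF20, of a primate gene family made of many near-identical repeats, had 3 of the 12 sites of highest fraction. One was 33.3% and 9.09%, another had the same values, and the third was 16.7% and 7.69%. Their reference windows occurred 13, 4 and 22 times in hg38. The edited window of the third occurred 37 times, that of the second 2 times and that of the first 0 times. Reads from such copies can be placed in the wrong copy, so the NBPF20 values are uncertain.

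Some neighboring sites shared one value. Of 2257 sites examined for spacing, 188 lay in 86 groups of sites no more than 50 nt apart, of which 71 held 2 sites, 14 held 3 and 1 held 4. In 26 of the 86 groups, with 57 sites, all fractions were alike within 1% in each library. Neighboring sites of one isoform share much of its read depth, and most fractions lay near the lowest listed nearby. Alike fractions therefore do not show that the conversions lay on the same reads.

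Groups of 3 were found in sequence with many genomic copies and in sequence with few or no others. In DHTKD1, a mitochondrial dehydrogenase gene, 2 sites of the 3′ UTR were 5% and 10.5% each, with 6303 and 5831 copies of the reference window, and the third was 5% and 9.52% with 49 copies. In HSPA4L, a chaperone of the HSP110 family, 3 sites of the 3′ UTR were 2.50% and 1.89% each, and the reference windows occurred 1, 1 and 2 times, but the edited window of the first occurred 10 times. In ALDH18A1, an enzyme of proline synthesis, 3 coding sites of exon 13 were 0.309%, 0.310% and 0.309% in replicate 1. In replicate 2 they were 2.27%, 0.345% and 0.346%, and all 3 reference windows occurred 1 time in hg38 and the edited windows 0 times.

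In the transcript, the recurrent buffer-only sites lay further 5′ than the RBFOX2-INSCRIBE recurrent sites. Coding sequence held 49.0% of them (42.0% of exonic cytosines, 23.7% of RBFOX2-INSCRIBE recurrent sites). The 3′ UTR held 39.9% (48.6% and 72.4%), the 5′ UTR 7.85% (6.04% and 1.33%) and non-coding exons 3.11%. Sites in 1 buffer-only library in the same isoforms were divided alike, with 50.2% in coding sequence and 40.7% in 3′ UTRs. The median position was 43.4% of the isoform length from its 5′ end, compared with 58.8% for RBFOX2-INSCRIBE. For the 1-library buffer-only sites in the same isoforms it was 43.6%. With isoforms divided into 10 equal parts, the first held 14.98% of sites and the last 6.10%, whereas these held 4.04% and 11.4% of the RBFOX2-INSCRIBE recurrent sites.

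**Figure D4:**
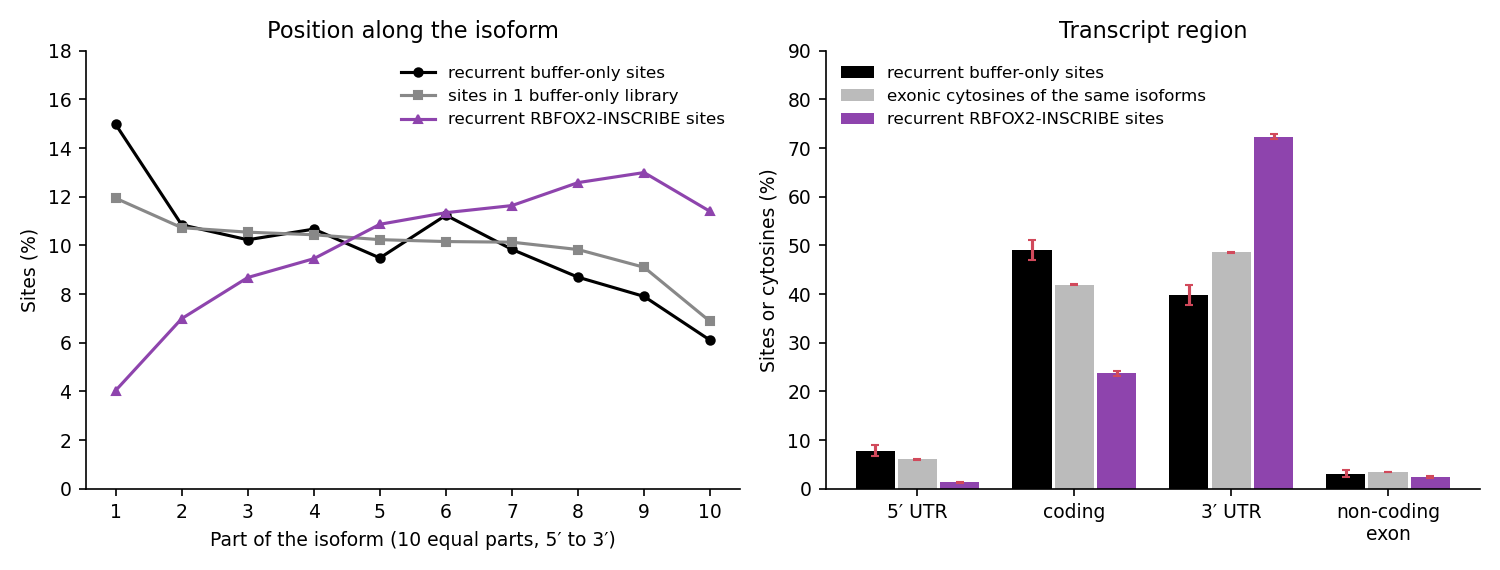
Left, percentage of sites in each of 10 equal parts of the isoform from 5′ to 3′. Right, percentage in each transcript region, with exact 95% binomial intervals (counting error only). The recurrent buffer-only sites were most frequent in the first part (14.98%) and in coding sequence (49.0%), and the RBFOX2-INSCRIBE sites in the 3′ UTR (72.4%).

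The RBFOX2 motif UGCAUG was found within 50 nt of 47 buffer-only sites, or 2.06%, on the edited strand. The share was 2.01% for 1-library buffer-only sites in the same isoforms and 7.98% for RBFOX2-INSCRIBE recurrent sites. The 21 bases around the C had a mean GC content of 51.9% at the buffer-only sites, 51.3% at the 1-library sites and 37.3% at the RBFOX2-INSCRIBE recurrent sites.

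On the strand opposite to the isoform lay 216 sites, or 9.47%, compared with 0.943% of RBFOX2-INSCRIBE recurrent and 2.99% of enzyme-only recurrent sites. The share was higher, at 11.2%, for 1-library buffer-only sites in the same isoforms. A site on the opposite strand reads as a G-to-A change on the isoform's own strand. Per the methods, reads aligned to the wrong strand were dropped, but the buffer-only libraries are not named there. The part of that step in these shares was not tested. For 77 of the 216 (35.6%) another gene had an annotated exon on the edited strand. The median mean fraction was 0.221% on the opposite strand and 0.292% on the strand of the isoform, and guanine preceded 44.9% and 51.7%. ABCE1, a ribosome recycling factor, had 6 of its 7 sites on the opposite strand, MAPRE1, which binds microtubule ends, 5 of 7, and MTHFD1, a folate enzyme, 5 of 8. Among sites listed in exactly 1 library, the opposite strand held 9.18% and 9.32% in the buffer-only libraries, 4.16% and 3.89% with RBFOX2-INSCRIBE and 6.27% and 4.92% with the enzyme alone. The groups did not overlap, and the exact permutation p was again 0.133.

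By gene, the sites were spread thinly. They fell in 1219 genes, of which 750 had 1 site and 75 had 5 or more. The 769 genes with the most other listed sites, 10% of the 7682 with any, held 61.1% of the recurrent buffer-only sites but 38.5% of all other sites and 32.6% of the 1-library buffer-only sites. Across the 1219 genes, the numbers of recurrent and of other sites had a Spearman rho of 0.525, a description in which both numbers depend on the gene's length and reads. Protein-coding isoforms held 96.2% of the sites.

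IRS4, an insulin receptor substrate, had the most, with 22 sites. Of these, 18 lay in the 3′ UTR and 8 were preceded by guanine. The fractions ranged from 0.0341% to 0.379% in replicate 1 and 0.0343% to 0.5% in replicate 2. IRS4 is a single-exon gene on the minus strand (chrX:108719949-108736409) with 3379 exonic cytosines, which gives 6.51 sites per 1000 cytosines. Of the 12 genes with the most sites, only SPEN had a lower density.

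SPEN, a large transcriptional corepressor, had 15 sites, of which 14 were coding and 6 G-preceded, with a density of 4.53 per 1000. RAD21, a subunit of cohesin, had 15 sites at 22.4 per 1000, and 6 of them lay on the opposite strand. SSRP1, a subunit of the histone chaperone FACT, had 12 sites at 16.7 per 1000. Fractions in these genes were low, with medians of 0.0454% and 0.0715% in SPEN, 0.0724% and 0.0648% in RAD21, and 0.0797% and 0.0844% in SSRP1.

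JUN, the AP-1 transcription factor whose windows are shown above, had 14 sites, of which 12 were preceded by guanine, 11 were coding and 3 lay in the 5′ UTR. Its fractions ranged from 0.110% to 0.255% in replicate 1 and from 0.107% to 0.253% in replicate 2. Coding site A was 0.255% and 0.253%, and coding site B was 0.241% and 0.119%. The 5′ UTR sites were 0.183% and 0.185%, and 0.172% and 0.176%. JUN also had 89 and 88 further sites in the buffer-only libraries, 154 and 171 with RBFOX2-INSCRIBE and 83 and 126 with the enzyme alone.

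HNRNPU, a nuclear RNA-binding protein, had 14 sites, 8 of them G-preceded. MARCKSL1, which binds calmodulin and actin, had the highest density of the 12, with 12 sites at 25.7 per 1000 cytosines, 6 of them in the 5′ UTR and 6 G-preceded. TUBA1B (alpha-tubulin), HSP90B1 (an endoplasmic reticulum chaperone), PKM (pyruvate kinase) and SFPQ (a splicing factor) had 9 sites each, and ENO1 (enolase) had 8. Guanine preceded 4 of 9 in TUBA1B, 2 of 9 in HSP90B1, 5 of 9 in PKM, 4 of 9 in SFPQ and 5 of 8 in ENO1. The G-preceded share was highest in JUN and lowest in HSP90B1, with few sites in each gene. TUBA1B, PKM and ENO1 have near-identical paralogs or processed pseudogenes, and none of their sites (0 in each) had an edited window elsewhere in hg38. Only exact matches were counted, so copies that differ at a further base would be missed. The reference window of the highest site occurred 4 times for TUBA1B, 2 times for ENO1 and 1 time for PKM.

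**Figure D5:**
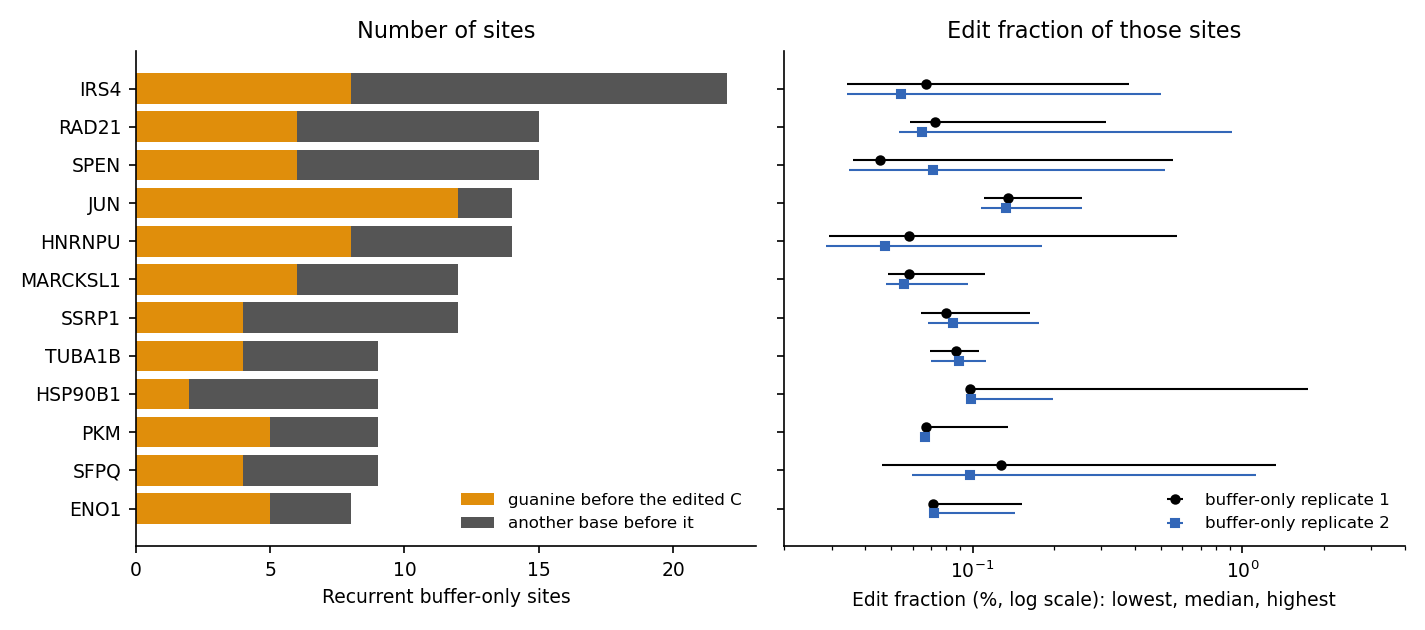
The 12 genes with the most recurrent buffer-only sites. Left, number of sites, with those preceded by guanine in orange. Right, lowest, median and highest edit fraction of those sites (percent, log axis) in buffer-only replicates 1 and 2. IRS4 had the most sites (22), and JUN the most preceded by guanine (12).

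Lists of genes for chaperones, splicing and translation each had a share of recurrent sites above the 0.36% of all sites, a description with no test. Chaperones had 59 sites in 16 of 20 genes, or 0.949% of their listed sites, with HSP90B1 (9 sites), HSP90AB1 (8) and CCT3 (6) leading. SR and hnRNP proteins, which govern splicing, had 56 sites in 18 of 31 genes (0.721%), led by HNRNPU (14), HNRNPK (6) and HNRNPA0 (5). Translation factors had 45 sites in 14 of 23 genes (0.807%), led by EEF1G (7), EIF4A1 (6) and EIF4B (6). The tables hold no mRNA levels, and the part of read depth in these shares was not tested.

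Cytosolic ribosomal proteins had 29 sites in 18 of 76 genes (0.799%), with 4 each in RPL3 and RPL4 and 3 in RPLP0. Tubulins and actins had 17 sites in 4 of 17 genes (0.832%), with 9 in TUBA1B, 5 in ACTG1 and 2 in ACTB. Both ACTB sites were G-preceded and among the lowest listed, at 0.0201% and 0.0201% in replicate 1 and 0.01998% and 0.03997% in replicate 2. Guanine preceded 10 of the 17 sites of this list, 14 of the 29 ribosomal protein sites and 25 of the 59 chaperone sites.

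Of 4 genes known or proposed as natural C-to-U targets (APOB, NF1, SDHB and EIF4G2), EIF4G2, a translation initiation factor, had 5 sites. They ranged from 0.140% to 0.301% in replicate 1 and 0.138% to 0.146% in replicate 2, and 2 were G-preceded. The other 3 had 0. Only 3 of the 4 genes had any listed site, so a count of 0 says nothing for a gene without one. The 5 sites were 0.696% of the listed sites of these genes, against 0.36% over all sites, a description with no test. The 15 deaminase and cofactor genes had 0 sites, and 2 of them had any listed site. Among example genes for RBFOX2-INSCRIBE in these cells, PKM had the 9 recurrent buffer-only sites given above, APP had 3, OGT had 1, and DEPDC1 and DCUN1D4 had 0, although both buffer-only libraries listed other sites in them (34 and 32 in DEPDC1, 7 and 6 in DCUN1D4).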

How the data were processed

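Fixed HEK293T cells were assayed in 6 PacBio libraries, 2 per group. Per the methods, the authors made consensus reads with ccs, split and trimmed them with skera, lima and refine, and aligned them to hg38 with pbmm2. They dropped reads below a quality score of 20, all but primary alignments, and reads aligned to the wrong strand. Unique IsoQuant assignments to isoforms were used. Edits found across all replicates and samples, and dbSNP positions, were removed. These methods name the RBFOX2-INSCRIBE and enzyme-only samples, and do not say whether the buffer-only libraries were treated alike. The deposited values are edit fractions per isoform and position. Read numbers are not part of them, so no interval of a fraction could be given, and the binomial intervals printed cover counts of sites only. The annotation behind the isoform names is not given in the sources used here.

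Distinct sites were positions with strand, and a site listed for several isoforms took its highest fraction. Sites were placed in GENCODE 44 by the isoform with the most listed pairs (more than 99.7% of pairs matched), and bases were read from hg38, where every site had a C. A window near an exon end therefore holds genomic bases. Named were the 12 sites of highest mean fraction, the 12 genes with the most sites (ties by density), up to 3 genes per list and 3 genes named by the study for these cells (APP, DEPDC1, DCUN1D4), to which PKM and OGT were added later. The GCGG, JUN, opposite-strand and neighbor examples, the window copy counts and the U-run share were chosen after values were seen. Members and lists were chosen with earlier results of these data known. Libraries were compared by a two-sided exact permutation test with Benjamini-Hochberg adjustment over 5 outcomes. The selection and test were tested on simulated data. Alternatives covered the definition of a site, the strand, the minimum fraction, the isoform, the replicate number as a block and leaving out each library. The software was scipy 1.17.1, numpy 2.4.6, matplotlib 3.10.9 and pandas 2.3.3 under Python 3.11.15. Genes of the mitochondrial genome were not analysed here, and a few genes and sites to which the rule applies are left unreported.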

Additional observations from a re-analysis of the deposited data

How the results depend on the processing

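The 5 differences between libraries, and that of guanine before the edited C, kept their direction under all 65 alternatives run, and none passed 0.05 by the exact permutation test (p from 0.133 to 0.4, the smallest these designs allow). Leaving out each library in turn gave differences of -28.1 to -23.3 points for A or U before the C, 2.70 to 3.78 for G after it, 4.13 to 4.93 for the opposite strand, -11.5 to -7.91 for the 3′ UTR and -0.162 to -0.0860 for the median fraction. With the replicate number as a block these were -26.02, 3.299, 4.57, -10.7 and -0.138. The numbers only name libraries, and enzyme-only replicates carry the numbers 2 and 3. The opposite-strand outcome has no value on the isoform strand alone.

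The number of recurrent buffer-only sites was 2190 as pairs of isoform and position. It was 659 with a fraction of at least 0.005 in both libraries and 105 with at least 0.02. Leaving out a library gave 2625 to 52486 sites, the highest when one buffer-only library alone decided (50794 without replicate 1, 52486 without replicate 2). In these ranges guanine preceded 37.5% to 51.2%, guanine followed 12.8% to 16.6%, the opposite strand held 8.86% to 9.46%, the 3′ UTR held 39.5% to 41.5%, and the median fraction, as the mean of both libraries' medians (0.276%), was 0.248% to 0.833%. At a fraction of at least 0.02 guanine preceded 35.2% and followed 22.9% of the 105 sites, 11.4% were on the opposite strand, 52.4% in a 3′ UTR, and the median was 3.85%. The median was 1.05% at 0.005, 0.253% over pairs, 0.284% on the isoform strand, and 0.271% without the 102 sites whose edited window is in hg38, an alternative chosen after seeing the data. The cause of these shifts was not tested, beyond the minimum raising the median by construction.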

Other observations

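The buffer-only libraries shared 7335 sites, which were 9.24% of the sites of replicate 1 and 9.41% of those of replicate 2. Of the shared sites, 31.2% were in none of the other libraries and 0 in all 4 of them. The recurrent sites were 2.88% and 2.93% of all sites of the libraries. Of the 2285 sites, 1.36% lay within 2 nt of an internal exon end.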
